A study of Mus musculus with 6 samples.

Results

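A set of 9 genes that make superoxide or nitric oxide were followed in the mouse hippocampus after cerebral ischemia/reperfusion (I/R): the NADPH oxidase genes Cybb, Cyba, Ncf1, Ncf4, Rac2 and Nox4, and the nitric oxide synthase genes Nos1, Nos2 and Nos3. They were chosen by name, and all 9 were found among the 41386 genes of the count table. RNA-seq was done on 3 I/R and 3 sham libraries of wild-type mice, 56 days old, whose strain is C57BL/6 in the labels and C57BL/6J in the methods. In the I/R group the left middle cerebral artery was closed by a filament for 1.5 h and reopened for 24 h; the sham group had the same surgery without the filament. Per the study's methods the hippocampus was that of the operated side, and each library pooled 3 hippocampi, so that SD and SE below describe pools and not single animals.

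NADPH oxidases pass electrons from NADPH across a membrane to oxygen and so make superoxide. In the phagocyte oxidase of microglia, macrophages and neutrophils, the membrane pair of gp91phox (NOX2, from Cybb) and p22phox (Cyba) becomes active when cytosolic subunits, among them p47phox (Ncf1) and p40phox (Ncf4), and a Rac GTPase join it. Nitric oxide synthases make nitric oxide from arginine with tetrahydrobiopterin as cofactor: neuronal nNOS (Nos1) works in nerve cells, endothelial eNOS (Nos3) in vessel walls, and inducible iNOS (Nos2) in stimulated immune and glial cells. In the hippocampus nNOS is best known from a subset of GABAergic interneurons. Superoxide and nitric oxide react with each other to form peroxynitrite.

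The sequences just upstream of the listed transcription start are shown for 3 oxidase genes that rose and for the synthase gene that fell. They can be read side by side. Whether the listed starts are those used in the hippocampus was not tested. No link between these sequences and the changes was tested. The table of RefSeq promoters used here (GRCm38.p6) had an entry for 5 of the 9 genes. Each line gives the 250 bases before the start, 5′ to 3′ in the direction of the gene, and capitals mark motif matches on either strand.
Cybb (chrX:9469325-9469574, minus strand): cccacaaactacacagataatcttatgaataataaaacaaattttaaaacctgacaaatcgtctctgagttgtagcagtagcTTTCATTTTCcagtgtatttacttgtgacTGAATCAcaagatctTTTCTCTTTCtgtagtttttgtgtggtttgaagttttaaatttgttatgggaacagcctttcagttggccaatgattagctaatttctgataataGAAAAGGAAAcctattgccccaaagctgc
Cyba (chr8:122432941-122433190, minus strand): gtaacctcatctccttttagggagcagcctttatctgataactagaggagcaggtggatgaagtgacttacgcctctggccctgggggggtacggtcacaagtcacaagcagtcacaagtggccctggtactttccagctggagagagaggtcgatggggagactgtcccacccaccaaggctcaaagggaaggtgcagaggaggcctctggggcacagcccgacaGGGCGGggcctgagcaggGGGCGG
Ncf1 (chr5:134229626-134229875, minus strand): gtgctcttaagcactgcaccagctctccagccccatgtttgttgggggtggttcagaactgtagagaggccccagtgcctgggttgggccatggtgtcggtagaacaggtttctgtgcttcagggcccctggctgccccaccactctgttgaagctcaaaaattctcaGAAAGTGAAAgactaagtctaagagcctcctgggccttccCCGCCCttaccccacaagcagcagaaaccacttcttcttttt
Nos1 (chr5:117866589-117866838, plus strand): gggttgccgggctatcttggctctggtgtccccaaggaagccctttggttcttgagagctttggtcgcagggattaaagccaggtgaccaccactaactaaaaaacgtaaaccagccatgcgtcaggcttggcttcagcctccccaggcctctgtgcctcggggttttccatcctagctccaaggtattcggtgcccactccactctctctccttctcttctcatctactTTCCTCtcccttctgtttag

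5 motifs were searched. The core of the interferon-stimulated response element (GAAANNGAAA) was in 2.98% of all 32851 promoter windows, AP-1 (TGANTCA) in 6.75%, the core bound by PU.1 (GAGGAA) in 23.3%, the GC box (GGGCGG) in 32.7% and the core of the antioxidant response element (TGACNNNGC) in 10.2%. The Cybb window held the interferon element core at 3 places, beginning 168, 124 and 29 bases before the start, and the AP-1 motif at 139 bases. Its GC content of 34.0% was below the median of 52.4% over all windows. The Ncf1 window held the interferon element core at 82 bases and a GC box at 42 bases before the start, and the Cyba window held GC boxes at 24 and 6 bases. The Nos1 window held the PU.1 core at 20 bases, and the Nox4 window a GC box at 24 bases. A match describes these letters and is not a bound site. Ncf4, Rac2, Nos2 and Nos3 are named here without a sequence.

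All 9 genes were tested and all 9 were differentially expressed genes (DEGs) in edgeR's quasi-likelihood test, where a DEG needed a Benjamini-Hochberg adjusted p below 0.05 over 18569 tested genes together with a change of more than 1.2-fold. Cybb, Cyba, Ncf1, Ncf4, Rac2, Nox4, Nos2 and Nos3 rose, and Nos1 fell. Of all genes tested 41.8% were DEGs, 21.8% higher and 19.9% lower in I/R, so a single DEG was common in this comparison. The median log2 fold change was 2.13 over the 9 genes, chosen with earlier results of these data known, and 0.026 over all genes tested. In each of the 9 genes the I/R and sham libraries were without overlap, as in 57.4% of all genes. Scaling by library size alone, in place of the trimmed mean of M-values (TMM), moved the median of all genes to 0.28 and the share of higher genes among all DEGs from 52.3% to 75.8%, and under that scaling the 9 genes kept these directions and their calls.

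**Figure D1:**
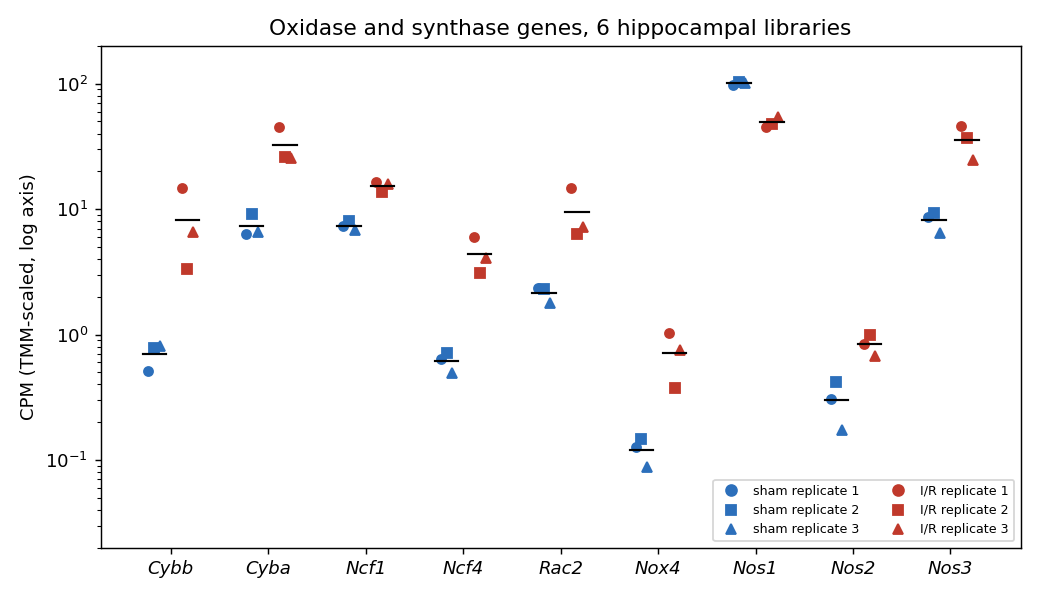
Level of each gene in each library as TMM-scaled CPM (counts relative to library size) on a log axis. Blue symbols are the 3 sham libraries, red symbols the 3 I/R libraries and black bars the group means. Red lies above blue for 8 genes and below it for Nos1, and I/R replicate 1 is the highest I/R library for 7 of the 9 genes.

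Total counts were 37527226 to 39553637 per I/R library and 37493042 to 44788547 per sham library. Excitatory neuron markers had a summed level of 8548 to 8686 CPM in sham and 1249 to 3590 CPM in I/R, with 6 of 8 markers lower. No other tissue was compared, so these values cannot check the hippocampal origin given in the labels. Summed choroid plexus markers ran from 41.1 to 3640 CPM in I/R and from 41.4 to 4470 CPM in sham, low in I/R replicate 3 and sham replicate 1, and leaving out both these libraries kept 6 genes higher and 1 lower; Nox4 and Nos2 then passed no more. In bulk tissue, fewer cells of a type and less RNA per cell cannot be told apart, and this holds for every gene below. A design of 3 libraries against 3 cannot give an exact two-sided permutation p under 0.1, and each of the 9 genes gave that value.

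The catalytic membrane subunit had the largest log2 fold change of the 9 genes in edgeR; in limma on log2(FPKM + 1), which damps low levels, Cyba (2.23) was above Cybb (2.12). Cybb (BALB/cJ assembly, chrX:4189693-4246630, minus strand) had 671, 132 and 263 counts in I/R replicates 1, 2 and 3 and 20, 32 and 28 counts in sham replicates 1, 2 and 3. The groups were apart, and I/R replicate 1 stood far above the other two, so that the I/R libraries spanned 4.47-fold in CPM. Mean CPM was 8.21 ± 5.89 after I/R against 0.704 ± 0.167 after sham surgery (mean ± SD, n = 3 each), and the log2 fold change was 3.54 (SE 0.56, edgeR adjusted p = 0.00237). Leaving out I/R replicate 1 lowered it to 2.81, with an edgeR adjusted p of 1.04e-05.

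Its partner Cyba (chr8:120950213-120958378, minus strand) encodes p22phox, which also serves NOX4 and other NOX enzymes. It had 2051, 1049 and 1029 counts in the I/R replicates and 247, 373 and 227 in the sham replicates. I/R replicate 1 was again high, while the other two I/R libraries were alike. Cyba rose from 7.37 ± 1.57 to 32.3 ± 11.02 CPM (n = 3 each), or by 2.13 on the log2 scale (SE 0.26, edgeR adjusted p = 0.000932).

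The cytosolic subunit genes Ncf4 and Ncf1 rose, Ncf4 with the larger fold change. Ncf4 (chr15:75693400-75713418, plus strand), which encodes p40phox, had 271, 123 and 162 counts in the I/R replicates against 25, 29 and 17 in the sham replicates. Its log2 fold change was 2.81 (SE 0.32, edgeR adjusted p = 0.000823), with 4.36 ± 1.46 CPM after I/R against 0.616 ± 0.112 CPM after sham surgery (n = 3 each).

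Ncf1 (chr5:134052903-134064178, minus strand), the organizer subunit p47phox, had 752, 543 and 640 counts in the I/R replicates and 287, 325 and 234 in the sham replicates. It was the steadiest of the rising genes across the I/R libraries, at 15.4 ± 1.57 CPM against 7.38 ± 0.598 CPM in sham (n = 3 each). The log2 fold change was 1.06 (SE 0.14, edgeR adjusted p = 0.0012). Ncf1 overlaps Gtf2ird2 on the opposite strand over 5718 bases, and 7.45% of its 50-base transcript stretches also occur in transcripts of other genes, most often Gtf2ird2, so its counts are uncertain. Gtf2ird2 itself ranged from 596 to 669 counts after I/R and from 547 to 765 after sham surgery.

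Rac2 (chr15:76031274-76046618, minus strand) encodes the Rac GTPase of blood-derived and microglial cells. It had 668, 253 and 288 counts in the I/R replicates and 92, 93 and 61 in the sham replicates, so that I/R replicate 1 had more than the other two I/R libraries together. Rac2 rose from 2.14 ± 0.319 to 9.40 ± 4.59 CPM (n = 3 each), with a log2 fold change of 2.13 (SE of 0.34, edgeR adjusted p = 0.00255).

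**Figure D2:**
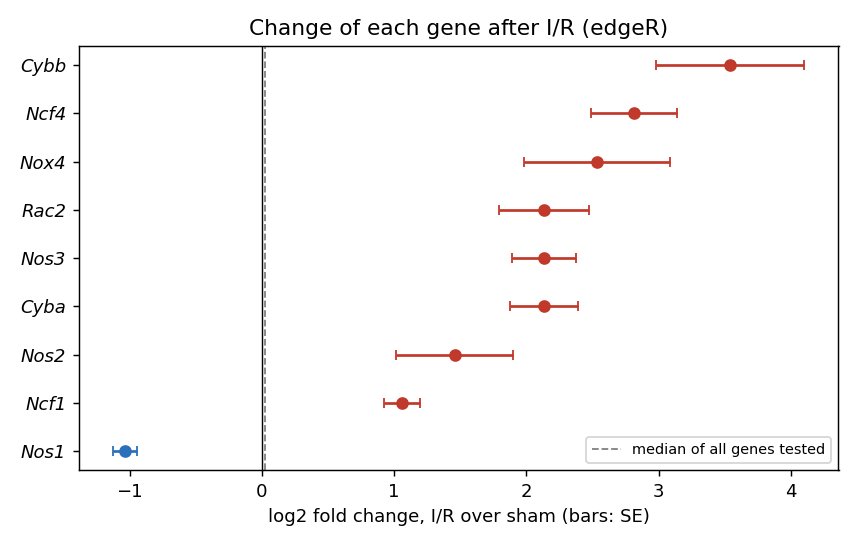
Log2 fold change of I/R over sham for each gene from edgeR, with bars of 1 SE. Cybb is highest at 3.54, Ncf1 is the lowest of the 8 genes that rose at 1.06, Nos1 lies at -1.03, and the dashed line is the median of all tested genes at 0.026.

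Most count ratios between subunit genes lay apart between I/R and sham. Ratios of counts within a library were compared for the 10 pairs of Cybb, Cyba, Ncf1, Ncf4 and Rac2. This comparison was chosen after the values were seen. Library scaling cancels in each ratio, and gene length cancels in its change between groups but not in the ratio itself. In 8 pairs the groups were without overlap, and the exact permutation p of each was then 0.1, the smallest that 3 against 3 can give. The 10 pairs come from 5 genes and are not independent. The share of such ratios over all pairs of genes was not computed, while single genes were without overlap in 57.4% of all genes tested. The ratio of Cybb to Ncf1 was 0.892, 0.243 and 0.411 in the I/R replicates and 0.0697, 0.0985 and 0.1197 in the sham replicates. The ratio of Ncf1 to Ncf4 moved the other way, from 11.5, 11.2 and 13.8 in sham to 2.78, 4.42 and 3.95 in I/R. Both ratios use Ncf1, whose counts are uncertain. Without Ncf1, the ratio of Cyba to Ncf4 went from 9.88, 12.86 and 13.35 in sham to 7.57, 8.53 and 6.35 in I/R. Cyba and Rac2 kept closest together, with ratios of 3.07, 4.15 and 3.57 in the I/R replicates and 2.69, 4.01 and 3.72 in the sham replicates (exact permutation p = 0.8). The ratio of Cybb to Ncf4 also overlapped between groups (exact permutation p = 0.5).

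Nox4 (chr7:87125663-87274273, plus strand), a NOX enzyme that works without cytosolic subunits, was rare. It had 47, 15 and 30 counts in the I/R replicates and 5, 6 and 3 in the sham replicates. The groups did not overlap, although I/R replicate 2 held few reads. Nox4 rose from 0.121 ± 0.0308 to 0.719 ± 0.330 CPM (n = 3 each), with a log2 fold change of 2.53 (SE of 0.55, edgeR adjusted p = 0.0083), and without I/R replicate 3 and sham replicate 1 the adjusted p was 0.0592.

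Of the synthases, the neuronal one fell. Nos1 (chr5:117391428-117574792, plus strand) had 2074, 1912 and 2165 counts in the I/R replicates and 3799, 4189 and 3496 in the sham replicates. Both groups were tight and well apart: the lowest sham library had 1.80-fold the CPM of the highest I/R library. Nos1 fell from 100.7 ± 2.998 to 49.2 ± 4.44 CPM (n = 3 each), with a log2 fold change of -1.03 (SE of 0.09, edgeR adjusted p = 0.000356).

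The endothelial synthase rose. Nos3 (chr5:21850620-21870260, plus strand) had 2091, 1464 and 984 counts in the I/R replicates and 336, 377 and 224 in the sham replicates. The lowest I/R library had 2.65-fold the CPM of the highest sham library. The level went from 8.13 ± 1.44 CPM in sham to 35.7 ± 10.7 CPM in I/R (n = 3 each), with a log2 fold change of 2.13 (SE of 0.24, edgeR adjusted p = 0.000758). Nos3 shares 20.0% of its 50-base transcript stretches with other genes, most often with Gm15587, an opposite-strand gene lying over it for 17399 bases. Whether reads were counted by strand is not stated, so reads of the pair cannot be told apart. Gm15587 was listed at 42, 24 and 42 counts in the I/R replicates and 2, 9 and 13 in the sham replicates. Atg9b, also on the opposite strand, overlaps Nos3 over 294 bases. It had 143, 159 and 209 counts in the I/R replicates and 194, 249 and 174 in the sham replicates.

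The inducible synthase was rare in both groups. Nos2 (chr11:77320065-77359027, plus strand) had 38, 40 and 27 counts in the I/R replicates and 12, 17 and 6 in the sham replicates. I/R replicate 1 was not the highest library here, unlike in the oxidase genes. The log2 fold change was 1.46 (SE 0.44, edgeR adjusted p = 0.0301), and the means were 0.837 ± 0.163 CPM after I/R against 0.300 ± 0.122 CPM after sham surgery (n = 3 each). The call was lost when I/R replicate 2, sham replicate 1 or sham replicate 3 was left out (edgeR adjusted p = 0.0996, 0.0864 and 0.097).

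The makeup of synthase transcripts shifted from Nos1 toward Nos3. As a share of the summed FPKM of the 3 synthases, Nos1 held 91.8%, 91.6% and 94.0% in the sham replicates and 49.9%, 56.6% and 68.7% in the I/R replicates. The groups did not overlap, and the mean share differed by -34.0 percentage points (58.4% ± 9.5 in I/R, 92.5% ± 1.32 in sham, SD, n = 3 each; exact permutation p = 0.1). Nos3 held 40.6% ± 9.44 in I/R against 7.28% ± 1.22 in sham, and Nos2 1.003% ± 0.177 against 0.279% ± 0.108 (SD, n = 3 each). The ratio of Nos3 to Nos1 counts is free of library scaling. It was 0.0884, 0.0900 and 0.0641 in the sham replicates and 1.01, 0.766 and 0.454 in the I/R replicates. Gene length cancels in its change between groups but not in the ratio itself, so its size does not give the relative number of transcripts. The gene length that the authors' FPKM implies equals the length column of the same table for only 50.6% of 28949 genes, and for Nos1 it is 3818 against 10144 bases. With the length column the Nos1 share was 36.3% in I/R and 82.9% in sham.

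**Figure D3:**
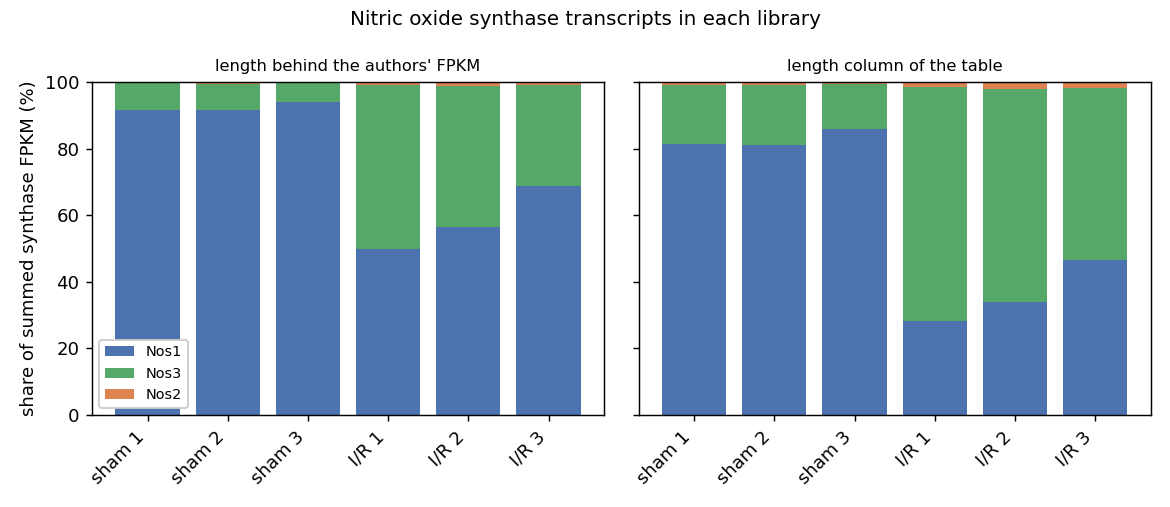
Share of each synthase in the summed FPKM of Nos1, Nos2 and Nos3 for each library, in percent, with the length implied by the authors' FPKM on the left and the length column of the table on the right. Nos1 holds at least 91.6% of each sham bar on the left, and in I/R Nos3 takes 30.4% to 49.1%.

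Levels between genes were compared per length, as FPKM. In sham, Nos1 led at 24.1 ± 0.585 FPKM, followed by Cyba at 8.88 ± 1.83, Ncf1 at 3.89 ± 0.293 and Nos3 at 1.90 ± 0.330, each without overlap with the next (SD, n = 3 each). Ncf4 at 0.764 and Rac2 at 0.645 FPKM overlapped each other, Cybb stood at 0.437 FPKM, and Nos2 at 0.0731 and Nox4 at 0.0431 FPKM closed the order and overlapped. In I/R, Cyba led at 47.1 ± 18.5 FPKM, above the other 8 genes in every library. Nos1 at 14.0, Nos3 at 10.05, Ncf1 at 9.70, Ncf4 at 6.53, Cybb at 6.21 and Rac2 at 3.44 FPKM followed, each overlapping its neighbor. Nox4 at 0.309 and Nos2 at 0.244 FPKM stayed lowest and overlapped. With the length column, Nos1 at 9.08 FPKM overlapped Cyba at 8.88 FPKM in sham, and in I/R Nos3 at 9.52 FPKM came next after Cyba, above Ncf1 at 5.84 FPKM and Nos1 at 5.28 FPKM, each overlapping its neighbor.

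Marker lists of the cell types linked to these genes in the background above were read in the same libraries. Of all genes tested, 21.8% rose and 19.9% fell. Of 10 markers shared by microglia and macrophages, 9 were tested and 8 rose, and their summed level was 262.9 to 399.9 CPM after I/R against 132.1 to 152.0 CPM after sham surgery; the defining marker Itgam was listed at 0 in every library. Homeostatic microglia markers moved both ways, with 4 of 8 lower and 2 higher, and their sums overlapped at 189.0 to 260.3 CPM after I/R and 202.7 to 226.0 CPM after sham surgery. P2ry12, a purine receptor of resting microglia, fell by 1.67 on the log2 scale (edgeR adjusted p = 0.00209), Siglech by 1.91 (edgeR adjusted p = 0.000435) and Tmem119 by 0.68 (edgeR adjusted p = 0.0048). Neutrophil markers summed to 10.7 to 40.9 CPM after I/R against 4.33 to 5.89 CPM after sham surgery, with 4 of 6 tested markers of 11 higher, though 1 of 7 without sham replicate 2, and the defining markers Ly6g and Elane were at no more than 3 counts in any library. Monocyte and border macrophage markers summed to 35.4 to 64.2 CPM after I/R against 10.99 to 14.2 CPM after sham surgery, with 6 of 7 tested markers of 9 higher. Endothelial markers summed to 478.2 to 810.5 CPM after I/R against 284.3 to 298.9 CPM after sham surgery, with 10 of 12 higher and 1 lower. GABAergic markers summed to 830.2 to 927.4 CPM after I/R against 1071 to 1131 CPM after sham surgery, with 1 of 10 higher and 4 lower, or 2 higher and 1 lower with scaling by library size alone. The part of these cell types in the gene changes was not tested.

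Set against the summed microglia and macrophage markers of the same library, Cybb and Ncf4 had the largest differences between groups. The log2 ratio of Cybb to the markers was -4.76, -6.32 and -5.34 in the I/R replicates and -8.01, -7.59 and -7.40 in the sham replicates, a difference of 2.19. For Ncf4 the difference was 1.67. For Cyba and Rac2 it was 0.987 and 0.926, but the sum is led by Csf1r, which did not pass the test (log2 fold change 0.23, edgeR adjusted p = 0.198), and against the median marker both differences turned to -0.232 and -0.293. Against the median marker the differences of Cybb and Ncf4 stayed positive, at 0.974 and 0.451. The ratio of Ncf1 to the summed markers overlapped between groups (difference -0.061, exact permutation p = 0.8), and against the median marker its difference was -1.28. Cybb, Cyba, Ncf4 and Rac2 each had an exact permutation p of 0.1 against the summed markers.

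The log2 ratio of Nos3 to the endothelial markers was above the sham libraries in every I/R library, with a difference of 1.04 against their sum and 1.01 against their median. For Nos1 and the GABAergic markers the difference was -0.732 against their sum and -0.838 against their median. In both, the groups were without overlap against the summed markers, and the exact permutation p was 0.1. Excitatory neuron markers, which fell in the same libraries, had a median log2 fold change of -0.87 beside the -1.03 of Nos1.

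**Figure D4:**
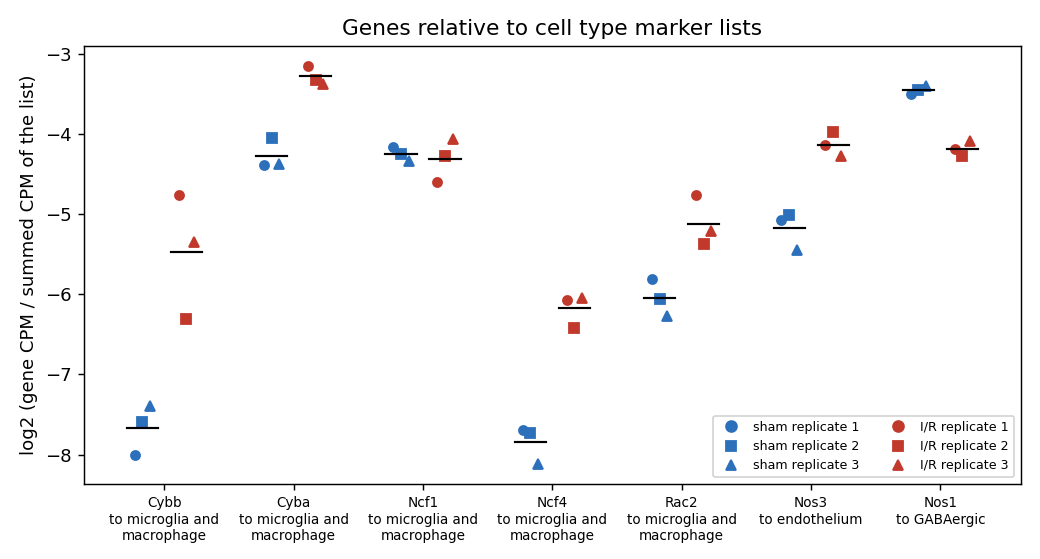
Log2 ratio of each gene's CPM to the summed CPM of a marker list in the same library, with blue sham libraries, red I/R libraries and black group means. Red lies above blue for Cybb, Cyba, Ncf4, Rac2 and Nos3, overlaps blue for Ncf1 and lies below it for Nos1.

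The rest of the oxidase machinery was followed in a list of 14 genes. All 14 were in the table, 7 were tested, 3 rose and 1 fell. Counts in this list and the lists below are to be read beside the 21.8% of all tested genes that rose and the 19.9% that fell. Without sham replicate 1 or without sham replicate 2, 1 rose and 1 fell. Hvcn1, a proton channel that balances the charge the oxidase moves, had a log2 fold change of 1.32 (edgeR adjusted p = 0.0383), and Cybc1, a chaperone of the membrane pair listed as BC017643, one of 0.43 (edgeR adjusted p = 0.0185). Rac3 fell by 0.68 on the log2 scale (edgeR adjusted p = 0.00338), and the widely expressed Rac1 had a log2 fold change of -0.17 (edgeR adjusted p = 0.147). Nox1 was not tested; it had 22, 8 and 9 counts in the I/R replicates and 2, 3 and 1 in the sham replicates. Duoxa2 and Noxa1 were at no more than 3 counts in any library.

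Of 11 kinases and Rac regulators that act upstream of the oxidase, all were tested, 4 rose and 3 fell, or 5 fell without I/R replicate 1. Vav1, an exchange factor of blood cells that activates Rac, had a log2 fold change of 2.22 (edgeR adjusted p = 0.00112). Arhgdib, an inhibitor that holds small GTPases such as Rac in the cytosol, had one of 1.84 (edgeR adjusted p = 0.00135), and Dock2, another Rac exchange factor of blood cells, one of 1.79 (edgeR adjusted p = 0.00424). Prkca, a protein kinase C that is abundant in neurons, had a log2 fold change of -1.21 (edgeR adjusted p = 0.00449).

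Among partners of the synthases, falls outnumbered rises. Of 12 partners, all tested, 2 rose and 8 fell, with a median log2 fold change of -0.60. Calm3, 1 of the calmodulin genes whose product switches nNOS and eNOS on, fell by 1.48 on the log2 scale (edgeR adjusted p = 0.00372), and Dlg4, the scaffold PSD-95 that ties nNOS to NMDA receptors, fell by 1.14 (edgeR adjusted p = 0.00178). Cav1, the caveolar protein that holds eNOS inactive, rose by 1.57 (edgeR adjusted p = 0.000673), and Hsp90aa1, a chaperone that helps eNOS, by 1.10 (edgeR adjusted p = 0.00122). With scaling by library size alone 3 partners rose and 5 fell, and without any 1 of the sham replicates 2 rose and 5 fell.

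Genes for the cofactor and the substrate moved in both directions. In tetrahydrobiopterin synthesis, 6 of 7 genes were in the table, 5 were tested, 1 rose and 3 fell. Gch1, the first and rate-limiting enzyme, had 529, 273 and 152 counts in the I/R replicates and 94, 62 and 74 in the sham replicates, a log2 fold change of 1.87 (edgeR adjusted p = 0.00787). The later enzymes Pts and Spr and the recycling enzyme Pcbd1 fell by 0.45, 0.33 and 0.66 on the log2 scale (edgeR adjusted p = 0.0193, 0.0341 and 0.0338), and with scaling by library size alone none of these 3 passed (edgeR adjusted p = 0.203, 0.523 and 0.162). Without sham replicate 1 or 2 the list had 1 fall, and without sham replicate 3 it had 0.

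In arginine supply and competition, 7 of 8 genes were in the table and tested, 3 rose and the other 4 did not pass; without I/R replicate 1, 1 fell. Arg1, which splits arginine and so competes with the synthases, had 706, 110 and 126 counts in the I/R replicates and 9, 4 and 0 in the sham replicates, with a log2 fold change of 5.95 (SE of 1.01, edgeR adjusted p = 0.00311). The groups did not overlap, and I/R replicate 1 again stood above the other two. Slc7a1, an arginine transporter, rose by 0.99 (edgeR adjusted p = 0.000664), and Ddah2, which clears the methylarginines that inhibit the synthases, by 0.64 (edgeR adjusted p = 0.0245).

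Downstream of nitric oxide, 8 of 9 receptor and cGMP genes were in the table and tested, 2 rose and 6 fell, with a median log2 fold change of -0.60. The guanylate cyclase subunits Gucy1a1 and Gucy1b1, the receptor of nitric oxide, fell by 0.63 and 0.70 on the log2 scale (edgeR adjusted p = 0.0149 and 0.0112). The cGMP-dependent kinase genes split, with Prkg1 down by -1.09 (edgeR adjusted p = 0.00267) and Prkg2 up by 0.996 (edgeR adjusted p = 0.0132). With scaling by library size alone, 2 of the 8 genes rose and 2 fell, and Gucy1a1 passed no more (edgeR adjusted p = 0.0623). Without sham replicate 2, 2 rose and 2 fell, without sham replicate 3, 0 rose and 2 fell, and without sham replicate 1, 0 rose and 5 fell.

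Of 13 enzymes that remove superoxide and peroxides, all were tested, 5 rose and 3 fell. Prdx1, a peroxiredoxin, rose by 1.10 (edgeR adjusted p = 0.000668), the glutathione peroxidases Gpx1 and Gpx3 by 0.98 and 1.84 (edgeR adjusted p = 0.00242 and 0.0035), and Prdx4, the peroxiredoxin of the endoplasmic reticulum, by 0.50 (edgeR adjusted p = 0.0132). With scaling by library size alone 7 of these enzymes rose and the 3 falls were lost, as they were without sham replicate 2 or 3. Over all 7 lists, 63 genes were tested, 20 rose and 24 fell, which is 31.7% and 38.1% of the tested genes beside 21.8% and 19.9% of all genes. With scaling by library size alone 27 rose and 10 fell, so the balance of falls and rises over the lists depended on the scaling. It also rested on single libraries: 13 rose and 17 fell without sham replicate 1, 16 rose and 12 fell without sham replicate 2, and 14 rose and 11 fell without sham replicate 3.

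**Figure D5:**
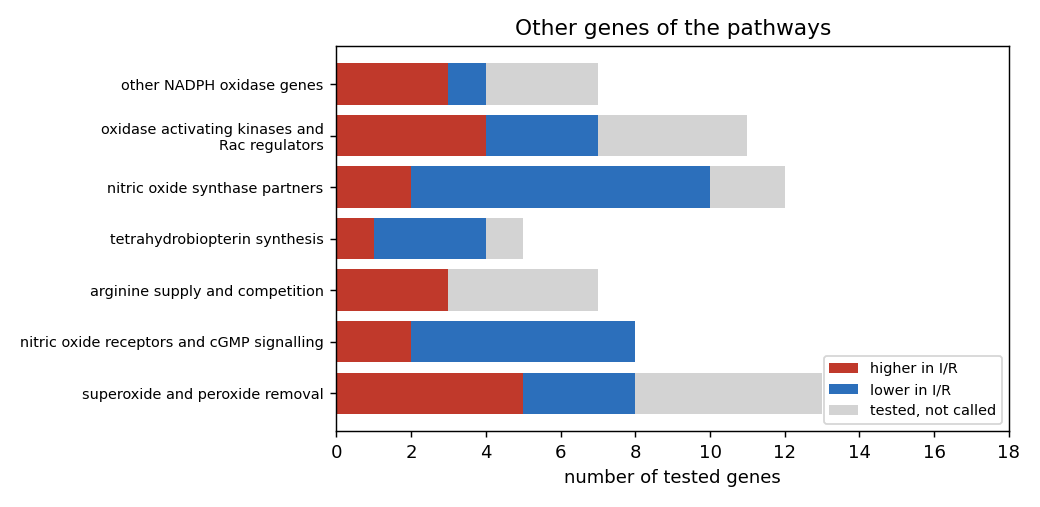
Number of tested genes in each of the 7 lists of other pathway genes, with genes higher in I/R in red, lower in blue and tested but not called in grey. Synthase partners (8 lower of 12) and nitric oxide receptors and cGMP signalling (6 lower of 8) hold the most falls, and these counts drop to 5 and 2 without sham replicate 3.

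The genes whose pattern over the 6 libraries was most like that of 3 of the genes were listed. The measure was the root mean square difference in log2 (CPM + 0.1) after subtraction of the sham mean. For Cybb these were Il1b, Htr2b and 1200007C13Rik, with differences of 0.192, 0.225 and 0.260. Because 1200007C13Rik was at 0 in every sham library, its likeness rests on the added 0.1. Its edgeR log2 fold change was 8.35 beside 3.54 for Cybb. Htr2b, at a sham mean of 0.0954 CPM, was also near the added value, and the sham mean of Il1b was only somewhat above it. The likeness of Il1b and Htr2b to Cybb therefore also depends in part on the added 0.1. For Nos1 they were Srcin1, Kit and Sema4f, at 0.0339, 0.0423 and 0.0431. For Nos3 they included Klf4 and Mthfd2, at 0.131 and 0.132. The list is a description over 6 libraries in 2 groups, without a test.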

How the data were processed

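The labels placed 6 hippocampal RNA-seq libraries in 2 groups of 3. Per the study's methods, the authors aligned reads with TopHat2 to an Ensembl genome and counted them per gene with HTSeq; the submitters' processing notes name Bowtie 0.12.2 and mm8. The deposited counts are raw, and the deposited FPKM values were made by the authors from them. The table's columns of the authors' own test were not used. Identifiers and coordinates were those of BALB/cJ, although the mice were C57BL/6 (C57BL/6J per the methods). Strand and multiple-alignment rules are not given in the sources used here; 4 split lines were rejoined.

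Counts were filtered by filterByExpr, scaled by TMM and tested with edgeR 4.0.16 (robust quasi-likelihood F-test) in R 4.3.3, with Benjamini-Hochberg adjustment over 18569 genes. SE was the log2 fold change divided by the square root of F. DESeq2 1.42.0, limma 3.58.1 (pseudocounts of 1 and 0.1 FPKM), other scalings and filters and left-out libraries were alternatives. The fit was tested on simulated data. Total counts of 37493042 to 44788547 set the precision; a library with 3 counts or fewer was taken to be at the floor.

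The genes and lists were chosen with earlier results of these data known. Named were the 9 genes, the DEGs of each list (the 4 with the lowest adjusted p where there were more) and, for likeness, the 3 nearest genes of Cybb, Nos1 and Nos3; genes the rule also names but the text leaves out are not reported here. Genes named outside this rule were Rac1, Nox1, Duoxa2, Noxa1 and genes overlapping a member. So were the markers Csf1r, Itgam, P2ry12, Siglech, Tmem119, Ly6g, Elane, Emcn, Pecam1, Cdh5 and Ocln. Marker ratios used log2 CPM over summed list CPM. For the median marker, the 0.1 CPM of the likeness measure was added to each marker but not to the gene. Itgam, without a count in any library, was kept in that median. The 50-base stretches came from GENCODE M21 transcripts.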

Additional observations from a re-analysis of the deposited data

How the results depend on the processing

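Over 19 alternatives Cybb, Cyba, Ncf1, Ncf4, Rac2 and Nos3 stayed higher and Nos1 lower past the threshold, with log2 fold changes of 2.12 to 3.89, 1.81 to 2.41, 0.99 to 1.32, 2.04 to 3.08, 1.36 to 2.41, 1.89 to 2.40 and -1.15 to -0.74. Nox4 and Nos2 could be tested in 18 alternatives, since at least 10 counts in every library removed both. Nos2 lost its call in limma on log2(FPKM + 1), at 0.21 (adjusted p = 0.0441, under the fold limit), and with single libraries left out, where its log2 fold change was 1.19 to 1.77 and that of Nox4 2.18 to 2.82. Without I/R replicate 3 and sham replicate 1, Nos2 was 1.59 (edgeR adjusted p = 0.102) and Nox4 2.53 (edgeR adjusted p = 0.0592). The cause was not tested. Requiring a fold over 2 left 2760 DEGs of 7756, with the 9 genes still called.

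Same-numbered libraries did not deviate together (correlations of -0.09, 0.06 and -0.18, none the best match of its number). This gave no sign that the numbers pair the samples, but 3 libraries per group cannot exclude it. With the replicate block 6332 genes were DEGs, Cybb had 3.28 and Nos1 -1.04, and none of the 9 calls was lost; over the 7 pathway lists 16 genes were then higher and 17 lower.

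With the length column, an alternative added after seeing the data, the Nos1 share differed by -46.6 points. Against the median in place of the sum of the markers, the log2 ratio differed by 0.974 for Cybb, -0.232 for Cyba, -1.28 for Ncf1, 0.451 for Ncf4, -0.293 for Rac2 and -0.838 for Nos1. Leaving out single libraries moved the Ncf1 ratio between -0.186 and 0.0823, the latter without I/R replicate 1. Over the 7 pathway lists, leaving out single libraries gave 13 to 20 genes higher and 11 to 25 lower. Depth limited Nox4 and Nos2, with 3 to 17 counts in each sham library.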
